A study of Homo sapiens with 2 samples.

Results

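The cells described here are those in which more than 25% of the unique molecular identifiers (UMIs, each standing for 1 captured RNA molecule) came from the 13 mitochondrially encoded protein genes. They were chosen by the mitochondrial share itself, so their mitochondrial UMIs, their share of the library and their depth are given as a description with no test. The cells numbered 777 of 10023 deposited cells, 271 of 3802 in the H1 library and 506 of 6221 in the GATA3 knockout library. They were set against the 3178 and 5083 cells of the same libraries with 5 to 20% mitochondrial UMIs, called reference cells below. H1 is an established human embryonic stem cell line. Both libraries came from cells grown on Matrigel in mTeSR1, a medium that keeps such cells undifferentiated, and given BMP4 at 50 ng/ml, a signalling protein that drives them to leave that state. The title and the characteristics of the H1 sample give 48 hours of BMP4, as do all labels of the knockout sample, whereas the H1 treatment note gives a shorter exposure, so 48 hours was taken for both. The knockout library was made from KO-GATA3-06, 1 GATA3 knockout clone picked from an H1 derivative that carries Cas9 under doxycycline control, so the knockout, the clone and the Cas9 insertion cannot be told apart between the libraries. The H1 library held 200569649 UMIs and the knockout library 284280464. There was 1 library per genotype and no replicate culture. No p-value was therefore computed, and each comparison between cells was made inside 1 library and then read side by side in both.

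Mitochondria hold their own small genome, whose transcripts stay inside the organelle behind its membranes. Nuclear-encoded messenger RNAs lie mostly in the cytoplasm, where those for secreted and membrane proteins are translated at the endoplasmic reticulum (ER) and the others largely free in the cytosol. Some long non-coding RNAs stay in the nucleus. In droplet RNA sequencing, a high mitochondrial share is widely used as a sign of a damaged or dying cell, and such cells are usually dropped before analysis.

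The targeted gene was read first. GATA3, a transcription factor induced by BMP4 (chromosome 10, 8045378 to 8075198, GRCh38), stood at 21.5 CPM (counts per 1000000 nuclear-encoded UMIs) in the reference cells of the H1 library and at 12.5 CPM in those of the knockout library. In the cells above 25% it was read from 26 UMIs at 18.0 CPM in H1 and from 45 UMIs at 16.6 CPM in the knockout. Tags from the 3′ end of a transcript that is still made do not read a deletion elsewhere in the gene, so these values check no label.

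The cells above 25% held far fewer nuclear-encoded UMIs than the reference cells and a similar number of mitochondrial ones. Their median was 1925 nuclear-encoded UMIs in H1 against 49087 in the reference cells, and 3031.5 against 44834 in the knockout, that is 25.5-fold and 14.8-fold lower. The median mitochondrial UMI number was 5213 against 6342 in H1 and 5014 against 5575 in the knockout, a ratio of 0.822 and 0.899. Between the 10th and 90th percentile of the reference cells' mitochondrial UMIs lay 219 of the 271 and 391 of the 506 cells. In nuclear-encoded UMIs, 255 and 499 fell below the 10th percentile of the reference cells. The median number of detected genes was 1188 in H1 and 1776 in the knockout, against 6852 and 6760, and none of the cells passed 7500 genes. A smaller number, 34 in H1 and 32 in the knockout, had under 1000 mitochondrial UMIs as well and a median of 529 and 482 nuclear-encoded UMIs.

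**Figure D1:**
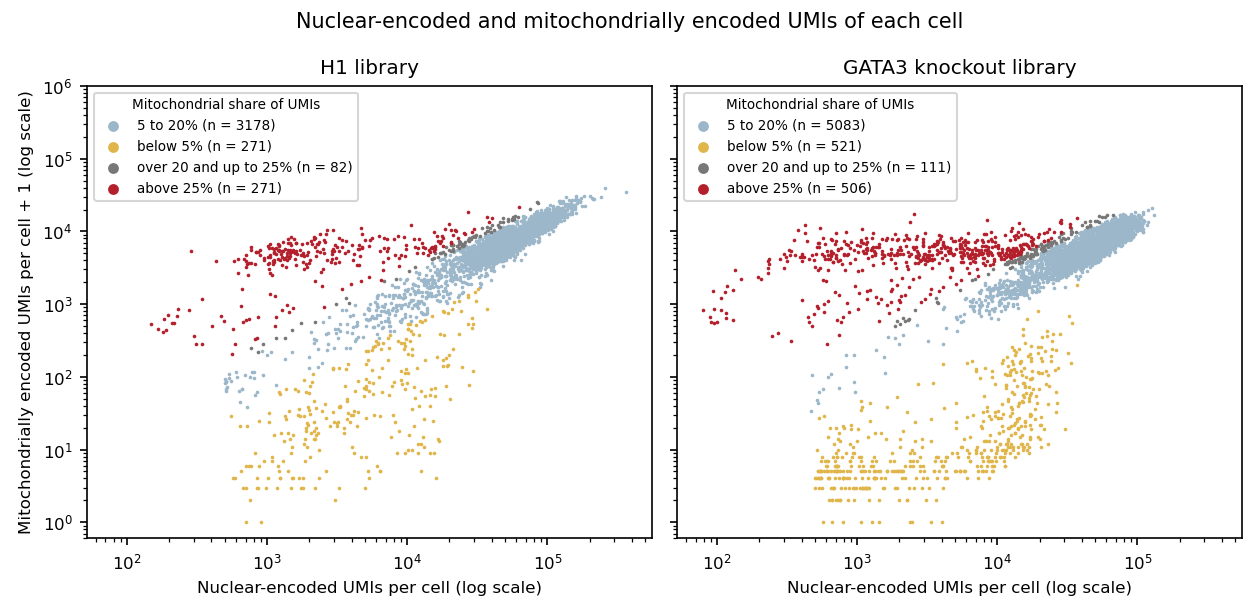
Each point is 1 cell, with nuclear-encoded UMIs on the x axis and mitochondrially encoded UMIs plus 1 on the y axis, both on log scales, coloured by mitochondrial share, with the H1 library on the left and the GATA3 knockout library on the right. The cells above 25% form a nearly level band with medians of 5213 and 5014 mitochondrial UMIs that runs to far lower nuclear-encoded counts, whereas cells below 5% drop away in mitochondrial UMIs.

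The share of such cells was 7.13% in H1 (exact Clopper-Pearson 95% interval 6.33 to 7.99) and 8.13% in the knockout (7.47 to 8.84). The intervals cover counting error only, overlap, and come from 1 library each. The cells above 25% carried 5.61% and 7.61% of each library's mitochondrial UMIs but 0.823% and 1.08% of its nuclear-encoded ones. Their median mitochondrial share was 66.8% in H1 and 56.9% in the knockout, with highest values of 94.95% and 96.62%. Just inside the limit, at 25 to 27%, 16 and 23 cells had a median of 19208 and 14387 nuclear-encoded UMIs, and just outside it, at 23 to 25%, 20 and 35 cells had 20699.5 and 14735. The cells on either side of the limit thus had similar depth. Of the barcodes, 8 occurred in both libraries, and 0 of the cells above 25% did.

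To compare what remained, the mitochondrial genes were taken out of the total, UMIs were summed over the cells of each class and expressed as CPM, and the log2 ratio of cells above 25% over reference cells was taken after adding 1 CPM. The ratios compare shares of a nuclear-encoded total whose median per cell was 25.5-fold lower in H1 and 14.8-fold lower in the knockout. A gene called higher thus held a larger share of what remained, which does not mean more UMIs per cell. Because sums weight deep cells, the 67 and 144 cells at 25 to 40% held 67.4% and 63.8% of the nuclear-encoded UMIs that these ratios rest on, so values for cells above 40% are given as well. Intervals of a ratio are exact binomial 95% intervals and cover counting error, not the spread between cells or cultures. Among 6223 nuclear-encoded genes with a mean of at least 20 CPM, 406 (6.52%) were higher past 2-fold in both libraries and 2 (0.0321%) were lower past 2-fold in both. In H1 alone 532 genes (8.55%) were higher and 21 (0.337%) lower past 2-fold. In the knockout alone 938 (15.1%) were higher and 20 (0.321%) lower. The interval of all 406 lay above 0 in both libraries, which largely follows from their choice by ratio and is no added support. Over all 6223 tested genes, 2039 in H1 and 2889 in the knockout had an interval above 0. Past 2-fold in opposite directions was 1 gene. The median log2 ratio of all tested genes was 0.07 in H1 and 0.17 in the knockout, which is the level against which the ratios below can be read. With the mitochondrial genes left in the total, the median moved by -0.84 and -0.90, 23 genes were higher and 959 lower in both libraries, and 2.34% of the called genes were higher ones. With TMM scaling the median moved by -0.08 and -0.22, and 314 genes were higher and 9 lower. List medians close to 0 are therefore not read as a direction. With reference cells matched on nuclear-encoded UMIs, which left 145 cells of each class in H1 and 179 in the knockout, 189 genes were higher in both libraries, 166 of them among the 406. The cells above 25% kept in this matching were the deeper ones, with medians of 4783 and 10242 nuclear-encoded UMIs. Their matched reference cells had 6107 and 11395, so the matched values differ from the main ones in the cells compared as well as in depth. With only cells of at least 5000 nuclear-encoded UMIs, 71 and 189 of the cells above 25%, 133 were higher, 131 of them among the 406.

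Transcripts for the extracellular matrix stood out in the remaining RNA of both libraries. This matrix is the network of collagens, laminins, fibronectin and proteoglycans that cells secrete and sit on. Of 25 genes in the list, 18 passed the expression minimum and 16 of these were higher past 2-fold in both libraries, against 6.52% of all tested genes. Their median log2 ratio was 1.73 in H1 and 1.85 in the knockout, and 2.45 and 2.39 in cells above 40%. FN1, which encodes fibronectin, stood at 168.5 CPM in the reference cells and 683.9 CPM in the cells above 25% of H1, a log2 ratio of 2.01 (interval 1.93 to 2.11). In the knockout it went from 162 to 629.6 CPM, a log2 ratio of 1.95 (1.88 to 2.02). VCAN, the large proteoglycan versican, stood at 245.2 and 713 CPM in H1 and at 281 and 820.4 CPM in the knockout, a log2 ratio of 1.54 in both. COL18A1, the collagen of basement membranes whose end fragment is endostatin, had the highest ratio of the list's 4 most abundant members, 2.22 in H1 and 2.32 in the knockout. SPARC, a small collagen-binding protein, was one of the 2 members short of the 2-fold limit, at a log2 ratio of 0.71 in both libraries.

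Summed over the whole list, the matrix genes stood higher in each class of mitochondrial share from 10% up. Their level was 1068 CPM in H1 cells at 10 to 15%, 2256 at 25 to 40%, 4784 at 40 to 60%, 6763 at 60 to 80% and 7020 above 80%. In the knockout the same classes stood at 1030, 2502, 4985, 6109 and 6785 CPM. Cell by cell, matrix genes made up a median of 0.429% of the nuclear-encoded UMIs above 25% in H1 against 0.0961% in reference cells, and 0.394% against 0.0989% in the knockout. The 90th percentile of the reference cells was exceeded by 81.2% and 80.6% of the cells above 25%. Matched on nuclear-encoded UMIs, the list median was 1.53 in H1 and 1.11 in the knockout.

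The expression minimum was a mean over the sums of both classes, so a gene scarce in reference cells could pass it through the cells above 25% alone. Of the 406 genes, 160 were below 20 CPM in the reference sums of both libraries. With the minimum asked of the reference cells alone, a setting chosen after seeing the data, 220 of 5608 genes (3.92%) were higher in both libraries, and 11 of 13 tested matrix genes were among them, with a list median of 1.54 in both.

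Among all tested genes, the 12 highest ratios, ranked by the library in which each gene moved less, belonged to 3 MTRNR2L genes described further on, 1 long non-coding RNA and 8 genes for secreted or membrane proteins. Of the 12, 7 were below 20 CPM in the reference sums of both libraries and were tested only because they were higher above 25%. LAMB2, the laminin beta 2 chain (chromosome 3, 49121114 to 49133118), had the highest ratio of the coding genes outside the MTRNR2L family. It stood at 8.51 CPM in reference cells and 45.0 CPM above 25% in H1, from 65 UMIs, and at 13.8 and 81.2 CPM in the knockout, from 220 UMIs. The log2 ratios were 2.28 (2.02 to 2.76) and 2.48 (2.36 to 2.76). HSPG2, the basement membrane proteoglycan perlecan (chromosome 1, 21822244 to 21937310, 97 exons), had 2.21 and 2.23. LAMA1, the laminin alpha 1 chain, had 2.05 and 2.09, and COL11A1, a fibrillar collagen chain, 2.17 and 2.46. FBN3, a fibrillin of microfibrils, had 2.19 and 2.45, and ADAMTS7, a secreted metalloprotease, 2.17 and 2.18. PIEZO1, a mechanically gated cation channel with many membrane spans, had 2.06 and 2.34. LINC01001, a long non-coding RNA at the end of chromosome 11 (127204 to 139612), had 2.27 and 2.44. All 12 stood higher still in cells above 40%, where LAMB2 was at 93.6 CPM in H1 and at 137 CPM in the knockout.

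**Figure D2:**
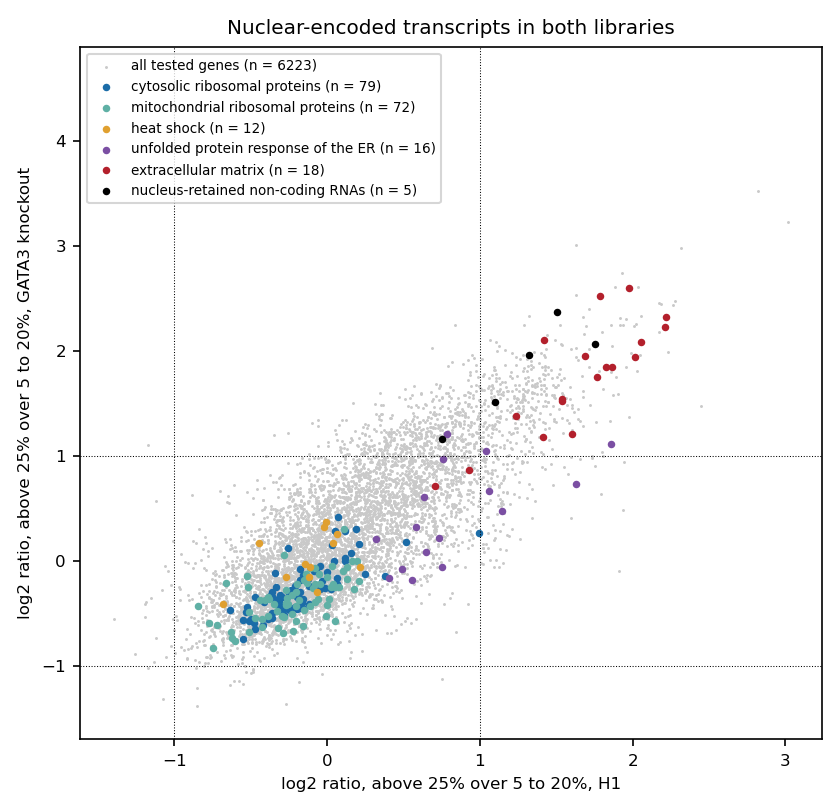
Each point is 1 of the 6223 tested genes, with the log2 ratio of cells above 25% over cells with 5 to 20% in H1 on the x axis and in the GATA3 knockout on the y axis, 6 gene lists in colour and dotted lines at 2-fold. Extracellular matrix genes (red) lie at the upper right with medians of 1.73 and 1.85, whereas the ribosomal protein genes lie around -0.20 and -0.32.

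The list for the unfolded protein response, the program that raises ER chaperones when proteins misfold there, had 16 tested members with a median log2 ratio of 0.74 in H1 and 0.40 in the knockout, which became -0.064 and -0.46 with the mitochondrial genes left in the total. Of these 2 were higher past 2-fold in both libraries, against 6.52% of all tested genes, and 16 and 12 had a ratio above 0. HSPA5, the main ER chaperone (BiP), went from 440.3 CPM in reference cells to 1601 CPM in H1 (log2 ratio 1.86) and from 419.1 to 910.5 CPM in the knockout (1.12). HYOU1, a chaperone of the same compartment, had 1.04 in both. HSP90B1 had 0.79 and 1.21, CALR (calreticulin) 0.65 and 0.08, and PDIA6, a disulphide isomerase, 0.49 and -0.08. The members are chiefly proteins of the ER lumen and membrane, and 14 of the 16 carry a hydrophobic segment by the measure given next.

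A higher ratio went with longer transcripts and with proteins that carry a hydrophobic stretch. As a rough mark of proteins directed to the ER or held in a membrane, a protein was counted when a 19-residue window had a mean Kyte-Doolittle hydropathy of at least 1.6, or a 10-residue window within its first 35 residues a mean of at least 2.0. These 2 measures were chosen after the matrix genes had been seen, so they describe the data and are no independent check. Of the 391 coding genes among the 406, 258 (66.0%) carried such a segment, against 1983 of 6132 (32.3%) tested coding genes. The median transcript length was 6625.5 bases among the 406 and 3181 among all tested genes. Coding genes were then split into 4 length classes of about equal size, the shortest up to 1846 bases and the longest from 5321 bases. Without a segment, the median log2 ratio went from -0.19 in the shortest class to 0.30 in the longest in H1, and from -0.32 to 0.71 in the knockout. With a segment it went from 0.08 to 0.71 and from -0.19 to 1.05. In each length class and both libraries, genes with a segment had the higher median. The share called higher in both libraries was 0.0891% (1 of 1122 genes) for short transcripts without a segment and 27.9% (158 of 566) for long transcripts with one. By GC content of the transcript, the shares called higher ran from 4.63% to 8.36% across 4 classes and the medians in H1 from -0.02 to 0.14. These segment, length and GC values rest on the main set of tested genes. Of the 406, 160 were below 20 CPM in the reference sums of both libraries and were tested only because they were higher outside the reference cells. The values were not repeated with the minimum asked of the reference cells alone, so the part of these genes in them was not tested.

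The 271 and 521 cells below 5% mitochondrial UMIs showed the opposite order. They were shallow too, with medians of 5059 and 5806 nuclear-encoded UMIs. None of the 406 genes was higher past 2-fold in them, and 135 in H1 and 164 in the knockout were lower past 2-fold. Over all tested genes in these cells, 8 and 2 were higher and 634 and 351 lower past 2-fold. Their median log2 ratio for long transcripts with a segment was -0.80 in H1 and -0.64 in the knockout, and for short transcripts without one 0.17 and 0.11.

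**Figure D3:**
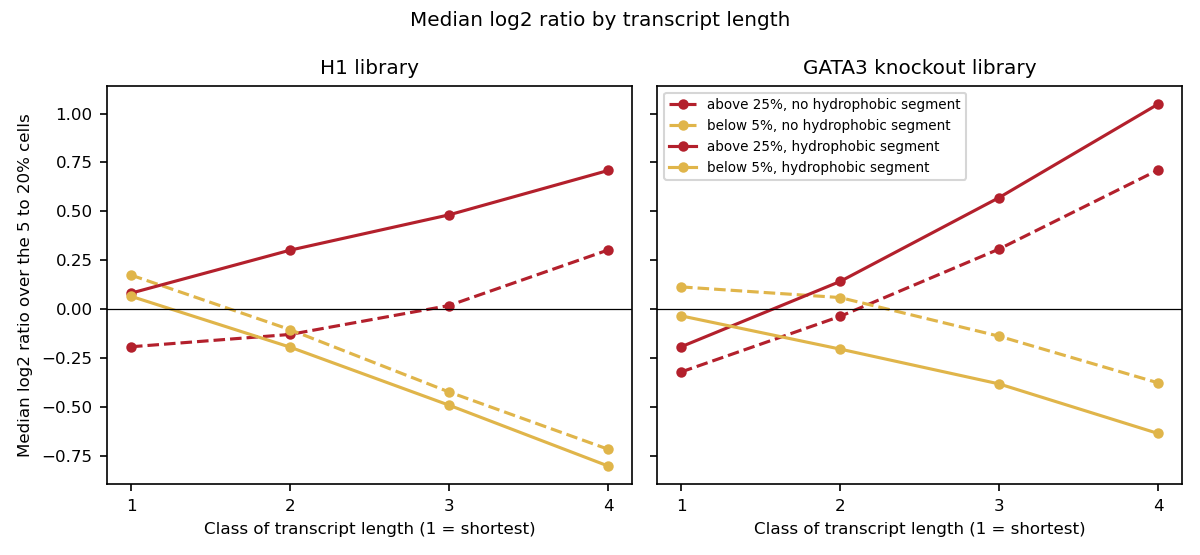
The x axis gives the 4 classes of transcript length and the y axis the median log2 ratio over the 5 to 20% cells, for cells above 25% (red) and below 5% (yellow), with solid lines for genes whose protein has a hydrophobic segment and dashed lines for the others. The red lines climb with length to 0.71 and 1.05 in the solid lines, and the yellow lines fall with length to -0.80 and -0.64.

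The amino acid stress list holds targets of ATF4, the factor of the integrated stress response, and 3 of its 20 tested members were higher past 2-fold in both libraries, against 6.52% of all tested genes. They were SLC7A5, a carrier of large neutral amino acids (log2 ratio 1.28 in H1 and 1.64 in the knockout), SLC7A11, the cystine carrier (1.14 and 1.59), and VLDLR, a lipoprotein receptor (1.18 and 1.15). SLC3A2, the membrane partner of both carriers, had 1.79 in H1 and 0.64 in the knockout. The list's median was 0.10 and 0.22, near that of all genes, and its most abundant cytosolic enzyme, PHGDH of serine synthesis, had 0.10 and 0.03.

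Non-coding RNAs that stay in the nucleus were another group that was higher as a share of the remaining RNA. Of 9 listed, 8 were measured and 5 were tested. Of these, 4 were higher past 2-fold in both libraries, against 6.52% of all tested genes. With the minimum asked of the reference cells alone it was 3 of 4, against 3.92%. NEAT1, the scaffold of nuclear paraspeckles, stood at 95.3 CPM in reference cells and 273.0 CPM above 25% in H1 and at 47.5 and 250.3 CPM in the knockout, log2 ratios of 1.51 and 2.37. FTX had 1.75 and 2.07, KCNQ1OT1, an antisense RNA of an imprinted locus, 1.32 and 1.96, and MIAT 1.10 and 1.52. MALAT1, a very abundant RNA of nuclear speckles, went from 4081 to 6880 CPM in H1 (0.75) and from 2531 to 5666 CPM in the knockout (1.16). The group was uneven between cells. In H1 at 60 to 80% mitochondrial share it summed to 13102 CPM, of whose 2348 UMIs 744 came from 2 cells, and to 9266 CPM without these. Above 25%, 35.1% and 35.4% of the cells exceeded the 90th percentile of the reference cells for this group. Across all long non-coding RNAs, 9 of 77 tested were higher in both libraries (11.7%), and the median log2 ratio was 0.15 and 0.16. The 7 tested host genes of small nucleolar RNAs, which are spliced and exported like messengers, had medians of -0.17 and -0.15, with ZFAS1 at -0.42 and -0.33.

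The 3 MTRNR2L genes need care. These nuclear copies of the mitochondrial 16S ribosomal RNA gene MT-RNR2 aligned to it over 1247, 1290 and 1036 bases with 88.37% (MTRNR2L1), 93.02% (MTRNR2L8) and 95.08% (MTRNR2L12) identical bases. MT-RNR2 itself is not among the genes of the count matrices, so the counts alone cannot tell its reads from those of its copies. Whether reads from it were counted under these genes was not tested. RefSeq places them on GRCh38 at chromosome 17, 22523415 to 22524663, chromosome 11, 10507887 to 10509176, and chromosome 3, 96617186 to 96618223. MTRNR2L12 stood at 155.1 CPM in reference cells and 1101 CPM above 25% in H1, and at 138.6 and 1608 CPM in the knockout, log2 ratios of 2.82 and 3.53. MTRNR2L8 had 3.02 and 3.23, and MTRNR2L1 2.32 and 2.98. In cells below 5% MTRNR2L12 stood at 67.1 and 15.1 CPM.

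Within the mitochondrial transcripts themselves, 11 of the 13 kept their proportions to within 0.4 on the log2 scale in both libraries and 2 did not. MT-ND5 and MT-ND6 encode subunits of respiratory complex I, lie end to end on opposite strands of the mitochondrial genome (12337 to 14148 and 14149 to 14673), and MT-ND6 is the only one of the 13 on its strand. MT-ND5 made up 0.878% of the mitochondrial UMIs above 25% in H1 against 2.21% in reference cells, and 1.22% against 2.63% in the knockout, log2 ratios of -1.33 (-1.36 to -1.31) and -1.10 (-1.12 to -1.09). MT-ND6 made up 0.364% against 0.162% and 0.393% against 0.158%, log2 ratios of 1.17 (1.13 to 1.21) and 1.32 (1.28 to 1.35). Its share was also above that of the reference cells in cells below 5%, at 0.295% in H1 and 0.269% in the knockout. A higher MT-ND6 share was thus not particular to the cells above 25%. In UMIs per cell MT-ND6 averaged 19.04 above 25% and 11.8 in reference cells of H1, and 20.5 and 9.71 in the knockout, although the cells above 25% had fewer mitochondrial UMIs in all. MT-ND5 averaged 45.9 and 161 in H1 and 63.6 and 162 in the knockout. The MT-ND5 share was already 1.52% and 1.96% at 15 to 20% and 1.08% and 1.58% at 20 to 25%, so its lower share was already seen below the limit. A MT-ND5 share below the 10th percentile of the reference cells was found in 56.1% and 73.5% of the cells above 25%, and a MT-ND6 share above the 90th in 48.3% and 51.0%. MT-ND4 came next at -0.39 and -0.19, and MT-CO3, the most abundant in the cells above 25%, was at 0.24 and 0.19. Whether counting used strand is not given in the sources used here, so reads of this neighbouring pair on opposite strands may not be fully separated.

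**Figure D4:**
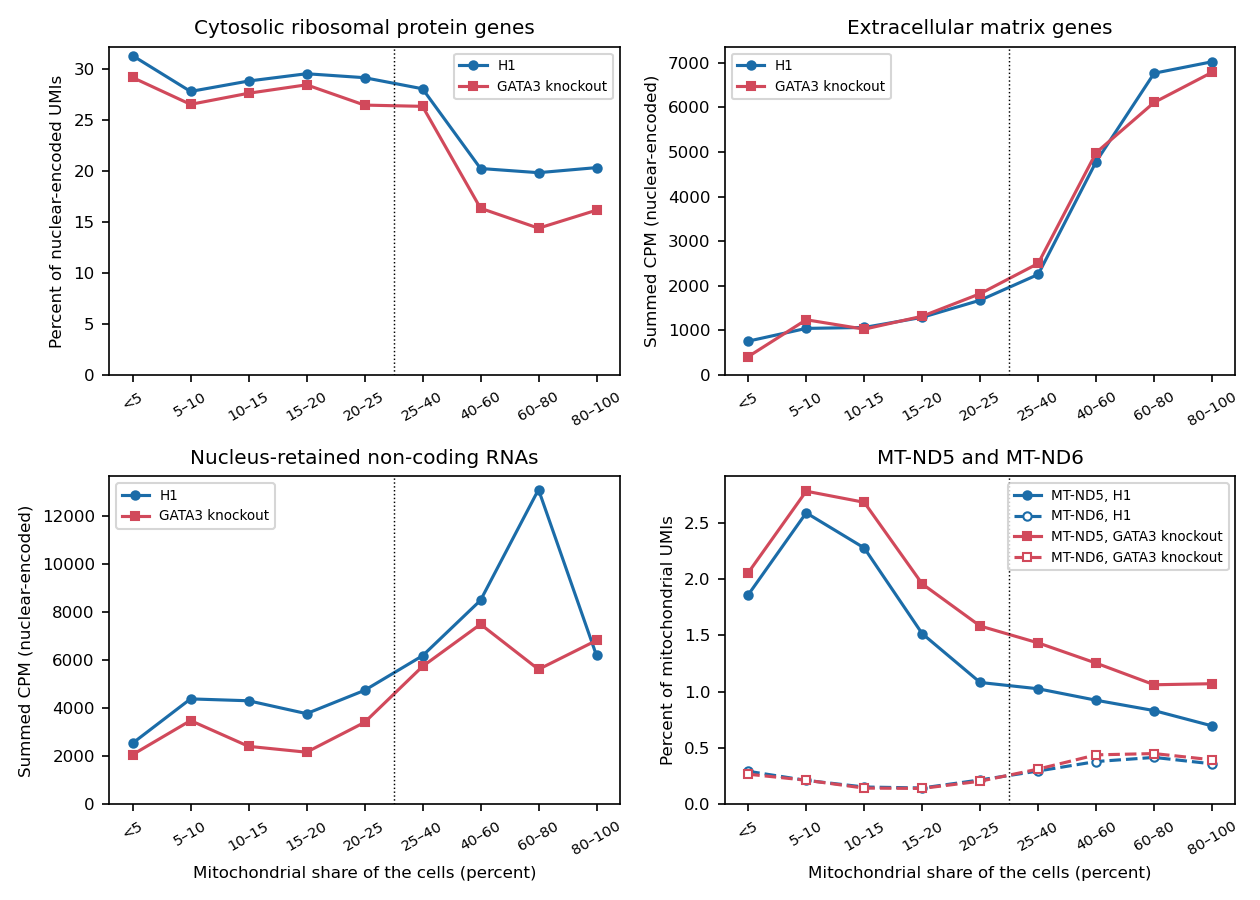
The x axes give the mitochondrial share of the cells in 9 classes, with a dotted line at 25%, and the y axes the share or summed level of cytosolic ribosomal protein genes, extracellular matrix genes, nucleus-retained non-coding RNAs and, as a share of mitochondrial UMIs, MT-ND5 and MT-ND6, for H1 (blue circles) and the GATA3 knockout (red squares). The matrix genes climb to 7020 and 6785 CPM above 80%, and the ribosomal protein genes step down past 40%. MT-ND5 goes from 2.59% and 2.78% at 5 to 10% to 0.697% and 1.07% above 80%. MT-ND6 is lowest at 15 to 20%, reaches 0.418% and 0.452% at 60 to 80% and is lower again above 80%.

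In the sums over all cells above 25%, few transcripts stood far below the general level. The 2 genes lower past 2-fold in both libraries there were MIXL1, a homeobox factor of the primitive streak, and CCNI, an atypical cyclin. This number depended on the cells and their weight. In cells above 40%, a limit added after seeing the data, 164 of 6662 tested genes were lower and 1365 higher. By the mean of per-cell CPM, 65 of 6452 were lower and 910 higher. With only cells of at least 5000 nuclear-encoded UMIs, 0 were lower. CCNI stood at 590.1 CPM in reference cells and 261.9 CPM above 25% in H1 and at 546.0 and 269.2 CPM in the knockout, log2 ratios of -1.17 (-1.32 to -1.03) and -1.02 (-1.13 to -0.92). MIXL1 stood at 144.2 and 67.9 CPM in H1 (-1.08, interval -1.39 to -0.80), but in the knockout, where it was scarce, at 6.09 and 1.85 CPM from 5 UMIs (-1.32, interval -3.35 to -0.50). The other 10 of the 12 lowest genes passed 2-fold in at most 1 library, and all had short reading frames of 225 to 627 bases, against a median of 1263 bases over the tested genes. They included TXN2, the thioredoxin of mitochondria (-1.14 and -0.96), BRK1, a small subunit of the actin-regulating WAVE complex (-0.87 and -0.94), and HIGD1A, a hypoxia-induced protein of the inner mitochondrial membrane (-0.91 and -0.93). UBE2C, a ubiquitin-conjugating enzyme of mitosis (-0.86 and -1.03), and BIRC5, the mitotic and anti-apoptotic protein survivin (-0.94 and -0.85), were also among them. GLTP, a glycolipid transfer protein, had -1.26 and -0.89, and GNG4, a G protein gamma subunit, -0.99 and -0.88. PPP1R11, a phosphatase regulator, had -1.06 and -0.92, RNF5, a membrane-anchored ubiquitin ligase, -0.92 and -0.94, and LITAF, a lysosomal membrane protein, -0.85 and -1.39.

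The cytosolic ribosomal proteins are the largest set of short abundant messengers. None of the 79 genes passed 2-fold in either library, and 17 in H1 and 11 in the knockout had a ratio above 0. The median log2 ratio was -0.20 and -0.32, which was -0.10 in H1 against depth-matched reference cells, and -0.66 and -0.88 in cells above 40%. RPS12 went from 9494 CPM in reference cells to 7269 in H1 and from 8293 to 5655 in the knockout, and RPL41 from 8844 to 7128 and from 7407 to 5657. Together the 79 genes took 29.6% of the nuclear-encoded UMIs at 15 to 20% in H1, 28.1% at 25 to 40% and 20.3% at 40 to 60%, and in the knockout 28.5%, 26.4% and 16.4%. These sums weight deep cells, and single cells were spread more widely at 25 to 40%, where 37.3% of the H1 cells and 50.0% of the knockout cells lay below the 10th percentile of the reference cells while 38.8% and 31.9% lay above the 90th. Cell by cell the median was 22.5% above 25% against 28.5% in H1, and 17.6% against 27.3% in the knockout, and 66.8% and 77.9% of the cells lay below the 10th percentile of the reference cells. EEF1A1, the abundant elongation factor, had -0.51 and -0.34, and TPT1, another short messenger of the translation class, -0.24 and -0.39.

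Nuclear genes for mitochondrial proteins were not higher as a group. Their called members stand beside 6.52% called higher over all tested genes. The respiratory chain and ATP synthase list had a median log2 ratio of 0.02 in H1 and -0.24 in the knockout over 76 tested genes, with 1 of them called. This was SDHA, the large flavoprotein of complex II, which went from 30.1 to 74.1 CPM in H1 (1.27) and from 31.1 to 78.3 CPM in the knockout (1.30). UQCRH, a small hinge subunit of complex III, had -0.44 and -0.64, and COX7C, another small subunit, of complex IV, -0.02 and -0.32. The 72 tested mitochondrial ribosomal proteins had medians of -0.21 and -0.37 with none called, and MRPL51 had -0.43 and -0.55. Of 36 genes for mitochondrial import, fusion and genome upkeep, with medians of -0.27 and -0.36, POLRMT, the mitochondrial RNA polymerase, was higher in both libraries (1.08 and 1.67), while TOMM7, a small part of the import channel, had -0.29 and -0.42.

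The stress lists gave no common direction. Called members, here and in the next paragraph, stand beside 6.52% called higher over all tested genes. Single called members of a list are therefore not read as a result about the list. Mitochondrial protein quality control had medians of 0.08 and 0.23 over 13 tested genes. Its proteases LONP1 (1.01 and 1.63) and SPG7 (1.14 and 1.71) were higher past 2-fold in both libraries, and its chaperonins HSPD1 (-0.22 and -0.15) and HSPE1 (-0.24 and -0.45) were not. Of 13 tested mitophagy genes, with medians of -0.08 and -0.16, ULK1, a kinase that starts autophagy, was called higher (1.496 and 1.66). The 12 tested heat shock genes had medians of -0.09 and -0.04 with none called. HSP90AA1, the stress-inducible cytosolic HSP90, went from 1821 to 1793 CPM in H1 and from 2415 to 3020 CPM in the knockout (-0.02 and 0.32), HSP90AB1 had -0.11 and -0.06, and HSPA8 0.22 and -0.06. Of 23 immediate early genes, which are induced within minutes of a stimulus, only 6 were tested and none was called, with medians of 0.33 and 0.03 and with JUND, the most abundant, at 0.05 and 0.11. CTGF, a secreted protein on this list, had 0.90 and 0.51.

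Targets of p53 had medians of 0.07 in H1 and 0.57 in the knockout over 15 tested genes. CCNG1, a cyclin induced by p53, was the called member, at 276.1 and 846.0 CPM in H1 (1.61) and 190.0 and 443.1 CPM in the knockout (1.22). BAX, a pore-forming protein of the mitochondrial outer membrane that is also on the apoptosis list, had -0.26 and -0.40, and PMAIP1 (NOXA) -0.05 and 0.19. The 15 tested apoptosis regulators had medians of -0.03 and 0.08, and XIAP, a caspase inhibitor with a long 3′ untranslated region, was called higher (1.29 and 1.54). The antioxidant list had medians of -0.12 and -0.35 over 19 tested genes, with the iron storage messengers FTL (-0.53 and -1.06) and FTH1 (-0.30 and -0.62) among its lower members and SLC7A11 its called one. The hypoxia list had medians of 0.00 and -0.16 over 8 genes, and glycolysis -0.07 and 0.26 over 17, with GAPDH at -0.28 and -0.64. The 1 tested metallothionein, MT1X, had -0.31 and -0.55. Cytoskeletal genes had medians of -0.02 and -0.29 over 28 genes with none called, with ACTB at -0.35 and -0.44, ACTG1 at -0.41 and -0.44 and TUBB at -0.34 and -0.29. The S phase list had medians of -0.03 and 0.18 over 34 genes and 1 called, CASP8AP2 (1.35 and 1.34). The G2 and M phase list had -0.24 and -0.01 over 48 genes, with CENPF, a very large kinetochore protein, at 0.87 and 1.31 and HMGB2, a small chromatin protein, at -0.46 and -0.25. Of the clustered histones 5 of 24 were tested, with medians of 0.58 and 0.94, while HIST1H4C, the most abundant, had -0.63 and -1.19. These messengers mostly lack a poly(A) tail, which limits what a poly(A)-primed library can read.

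The pluripotent list had medians of -0.11 and -0.02 over 14 tested genes with none called. POU5F1 (OCT4) stood at 1063 CPM in reference cells and 918.1 CPM above 25% in H1 and at 1649 and 1428 CPM in the knockout, a log2 ratio of -0.21 in both. L1TD1 had -0.05 in both, TERF1 0.71 and 0.45, and LIN28A -0.99 and -0.53. The primitive streak list had medians of -0.19 and -0.10 over 7 genes. Past 2-fold, NODAL and LEFTY1, an inhibitor of NODAL signalling named after its values were seen (1.91 and -0.10), were higher in H1 alone and MIXL1 was lower in both libraries. CER1, a secreted antagonist likewise named afterwards, had -0.19 in H1 and 0 UMIs above 25% in the knockout, against 1.24 CPM in reference cells. Its secreted factor NODAL stood at 106.6 and 238.4 CPM in H1 (1.15) and at 21.3 and 21.0 CPM in the knockout (-0.02), whereas EOMES, a T-box factor of the streak, had -0.38 and -0.70. FST, the secreted activin antagonist follistatin, had 0.38 and -0.0040. Of the 16 amnion and trophectoderm genes 2 were tested, TFAP2A at -0.18 and 0.64 and BAMBI at 0.49 and 0.14. No definitive endoderm gene of 10 reached the minimum, and the 10 summed to 13.9 CPM above 25% against 29.1 CPM in H1 and to 9.23 against 12.9 CPM in the knockout. Of the 15 early neural genes 3 were tested, with medians of -0.01 and 0.02, ZIC2 at -0.01 and 0.45 and IRX2 at -0.60 and -0.07.

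Markers of other cell types were also read. Of 10 mesenchymal and fibroblast genes 3 were tested and 2 of these, COL1A1 (1.54 and 1.53) and POSTN (1.42 and 1.96), were higher in both libraries. Over all tested genes the share was 6.52%. The list median was 1.42 in H1 and 1.53 in the knockout, and 0.83 and 1.93 in cells above 40%. COL1A1 and POSTN were thus 2 of only 3 genes read. Both encode secreted matrix proteins, and COL1A1 is on the matrix list too, while the surface marker THY1 had -0.16 and -0.29. Of 10 blood and endothelial genes the 1 tested, KDR, a membrane receptor for VEGF, stood at 98.9 and 287.6 CPM in H1 (1.53) and at 48.0 and 161.0 CPM in the knockout (1.73). No cell type beyond those of the libraries is named from these, and their part in the matrix result was not tested.

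To compare lineage make-up at equal depth, each cell was thinned at random to 5000 nuclear-encoded UMIs and shallower cells were left out. This kept 71 of 271 cells above 25% in H1 and 189 of 506 in the knockout, so the comparison covers the deeper part of them. The share of cells with a SOX2 UMI, a pluripotency and early neural factor, was 46.5% (33 of 71) against 46.0% in reference cells of H1, a difference of 0.471 points (95% interval -11.6 to 12.8). In the knockout it was 76.7% against 78.6%, a difference of -1.92 points (-8.70 to 4.02). This depends on the reference, since against knockout cells of 5 to 10% mitochondrial UMIs alone the SOX2 difference was 14.7 points. Before thinning the shares were 26.2% against 76.5% and 59.7% against 95.02%. For NANOG, a pluripotency factor that also persists in the early streak, the thinned shares were 23.9% against 34.7% in H1 (-10.7 points, interval -20.2 to 0.990) and 17.5% against 25.3% in the knockout (-7.80 points, interval -13.1 to -1.51).

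For MIXL1, EOMES or TBXT, the factors of the primitive streak, the shares were 31.0% against 39.4% in H1 (-8.42 points, interval -19.01 to 3.79) and 2.12% against 4.69% in the knockout (-2.57 points, interval -4.23 to 0.692). For TFAP2A, HAND1 or ISL1, factors of amnion and extraembryonic cells, they were 9.86% against 11.8% in H1 (-1.89 points, interval -7.81 to 7.58) and 14.8% against 14.6% in the knockout (0.179 points, interval -4.67 to 6.14), where the difference was -15.1 points against cells of 5 to 10% alone. At 5000 UMIs 1 of the 8 intervals thus lay off 0, and a difference of several points could not be detected at this depth in the other 7. The order between libraries was the same in both classes, with streak factors commoner in H1 and SOX2 commoner in the knockout. For background, the streak factors were seen in 9.72% of the 360 SOX2-rich reference cells of H1 (at least 3 SOX2 UMIs, median depth 55014 UMIs) and in 2.18% of 2016 in the knockout (49644 UMIs), and the amnion factors in 2.78% and 3.77%. SOX2 was seen in 7.80% and 26.0% and NANOG in 14.9% and 12.4% of the 141 and 346 reference cells with at least 2 UMIs of the amnion factors (median depths 66503 and 52139.5 UMIs). The streak share above 25% in the knockout, 2.12%, lay near the 2.18% of SOX2-rich reference cells, which were not shown to lack these factors. Its interval (0.580 to 5.33) also held the reference share of 4.69%. The value is therefore read neither as expression nor as its absence. Before thinning, the reference cells compared had median depths of 56056.5 and 50676.5 UMIs, and the cells above 25% had 19878 and 15869.

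**Figure D5:**
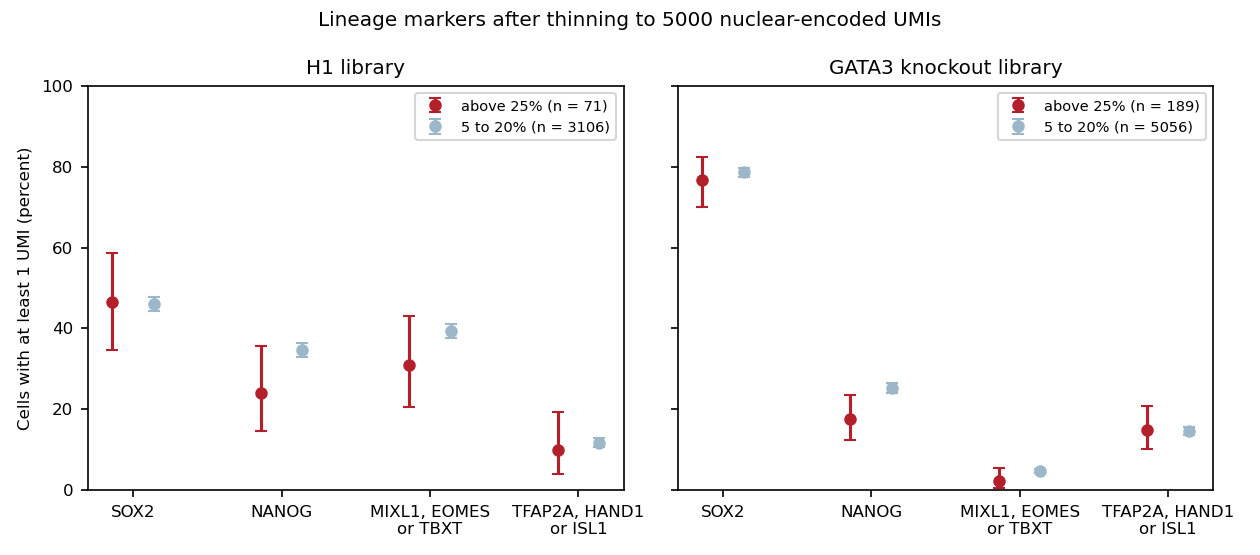
The x axis names 4 marker sets and the y axis gives the percentage of cells with at least 1 UMI of the set after thinning to 5000 nuclear-encoded UMIs, with exact 95% intervals as bars, for cells above 25% (red) and cells with 5 to 20% (blue). SOX2 stands at 46.5% and 46.0% in H1 and at 76.7% and 78.6% in the knockout, and the bars of the 2 classes overlap for every set but NANOG in the knockout.

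Thinned to 1000 UMIs, which kept 219 and 380 of the cells above 25%, 3 of the 8 intervals lay off 0. SOX2 differed by -5.99 points in H1 (-9.78 to -1.13), the streak factors by -8.51 points in H1 (-12.0 to -3.86), and the amnion factors by 2.75 points in the knockout (0.300 to 5.86). This depth was added after seeing the data.

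Thinned to 2000 UMIs, which kept 133 and 304 of the cells above 25%, SOX2 was seen in 18.0% against 27.4% in H1, a difference of -9.33 points (interval -15.7 to -1.57), and the streak factors in 16.5% against 25.7% (-9.15 points, interval -15.2 to -1.57). In the knockout the SOX2 difference at this depth was -1.26 points (-7.21 to 4.60). NANOG was seen there in 7.24% against 11.4% of the knockout cells, a difference of -4.20 points (interval -7.00 to -0.579). In H1 the NANOG difference was -2.23 points (-7.54 to 4.78), and the remaining intervals at this depth held 0. By class at 2000 UMIs, 61.7% of the H1 cells above 25% showed none of the 3 marker groups SOX2, streak or amnion, against 45.5% of the reference cells, and 37.8% against 36.5% in the knockout. When the reference was weighted to the class make-up of the cells above 25%, 411 genes were higher in both libraries, 398 of them among the 406.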

How the data were processed

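Single cells of both libraries were profiled with 10x 3′ v3 droplets. The authors deposited, per the labels and their methods, a filtered matrix of UMI counts per gene and cell for each library, made with Cell Ranger 3.0.2 on GRCh38, with 33538 genes and no normalization. The study's methods join a limit of 7500 genes and one of 25% mitochondrial counts with "and" in their filter. Read as removing a cell past either limit, it removes all the cells described here, through the 25% limit. Read as removing only cells past both limits, it removes none of them, since none passed 7500 genes. No doublet caller was run here and no doublets were removed. The members and the 32 gene lists were chosen with earlier results of these data known.

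From the counts, mitochondrial shares were computed per cell, and UMIs of nuclear-encoded genes were summed per library over cells above 25% and over cells with 5 to 20%. The sums were scaled to CPM of the nuclear-encoded total, and log2 ratios were taken with a pseudocount of 1 CPM among genes with a mean of at least 20 CPM over the 4 sums. A gene was called when past 2-fold the same way in both libraries. With 1 library per group there was no test, and intervals (exact binomial, Clopper-Pearson, 95%) cover counting error only. The interval of a difference between shares was formed from the intervals of both shares. The text names the 12 genes at either end of the ratios, ranked by the library in which a gene moved less and requiring the same direction in the mean of per-cell CPM, besides GATA3, the 13 mitochondrial genes and list members that are called or among the 4 most abundant of their list. For lineage markers each cell was thinned at random to 5000 nuclear-encoded UMIs and shallower cells were left out. Positions, transcript lengths and proteins came from the GENCODE and RefSeq tables for GRCh38, which gave a position for 33113 of the 33538 genes. Transcript length and hydrophobic segments were measures chosen after the values were seen. Sums were scaled with TMM (edgeR 4.0.16) and DESeq2 1.42.0 size factors in R 4.3.3 as alternatives, and other limits, references, minimums, pseudocounts and thinning depths were tried. Calling was tested on simulated data. Python 3.11.15, numpy 2.4.6, scipy 1.17.1, pandas 2.3.3, biopython 1.88 and matplotlib 3.10.9 were used.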

Additional observations from a re-analysis of the deposited data

Results flagged for a closer look

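Among the genes followed by name, 5 had log2 ratios whose counting intervals lay on opposite sides of 0 in the libraries, and with 1 library each the difference was not tested. HSPA8, a constitutive cytosolic chaperone, had a log2 ratio of 0.22 in H1 and -0.06 in the knockout, a difference of -0.28 as knockout minus H1. PDIA6, the ER disulphide isomerase, had 0.49 and -0.08, a difference of -0.57. TOP2A, the topoisomerase of dividing cells, had -0.16 and 0.31, a difference of 0.47. Among the mitochondrial transcripts, the share of MT-ND1 had a log2 ratio of -0.27 in H1 and 0.13 in the knockout, a difference of 0.40, and that of MT-CYB had 0.10 and -0.04, a difference of -0.14.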

How the results depend on the processing

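No paired analysis was possible because each group had 1 library and no test was run. Among the values that answer a comparison, 184 stayed in place under the alternatives, 73 moved and 1 changed sign. Among the others 794 stayed, 185 moved and 9 changed sign. The cause was not tested. Values are given for H1 and then the knockout. The share of cells was 9.28% and 9.92% with a limit of 20%, 6.31% and 7.10% with 30%, and 5.90% and 6.85% among cells of at least 5000 UMIs. The number of genes higher in both libraries was 782 with a limit of 30%, 133 at 5000 nuclear-encoded UMIs or more, 189 against depth-matched reference cells, 910 by the mean of per-cell CPM, 23 with mitochondrial genes in the total, 772 with a minimum of 5 CPM, 180 with 50 CPM, 952 with none, 220 with 20 CPM asked of the reference cells alone and 1365 for cells above 40%. The number lower was 21 with a limit of 30%, 0 at 5000 nuclear-encoded UMIs or more, 0 against reference cells of at most 7500 genes, 4 when depth-matched, 65 by per-cell means, 9 with TMM, 13 with DESeq2 size factors, 959 with mitochondrial genes in the total, 6 without ribosomal protein genes, 1 with a pseudocount of 5 CPM, 4 with a minimum of 5 CPM, 12 with none, 4 with 20 CPM asked of the reference cells alone, 1 with the lineage-weighted reference and 164 for cells above 40%. The limit of 40% and the minimum on reference cells were added after seeing the data. The ribosomal protein median was -0.44 and -0.49 with 30%, -0.095 and -0.21 at 5000 UMIs or more, -0.10 in H1 when depth-matched, -0.38 and -0.60 by per-cell means, -0.27 and -0.54 with TMM, -0.31 and -0.54 with DESeq2 size factors, -0.998 and -1.13 with mitochondrial genes in the total and -0.66 and -0.88 above 40%. The matrix median was 2.11 and 2.12 with 30%, 1.28 in H1 at 5000 UMIs or more, 1.11 in the knockout when depth-matched, 2.23 and 2.12 by per-cell means, 0.93 and 1.05 with mitochondrial genes in the total and 2.45 and 2.39 above 40%. The median of nucleus-retained RNAs was 1.802 in H1 by per-cell means, 0.62 in H1 with mitochondrial genes in the total, and 2.31 and 2.64 above 40%. With mitochondrial genes in the total the unfolded protein response had -0.064 and -0.46, and in the knockout ATF4 targets had -0.63, p53 targets -0.24 and amnion genes -0.40. Signs also changed for metallothioneins (0.17) and amnion genes (-0.68) in the knockout against cells of 5 to 10%, the G2 and M phase list in H1 when depth-matched (0.026), blood and endothelium with no minimum (-0.034 and -0.059) and early neural genes in H1 with the lineage-weighted reference (0.029). Without thinning, the differences in detection for SOX2, NANOG, streak and amnion factors were -50.3, -64.6, -43.7 and -28.1 points in H1 and -35.3, -63.1, -15.3 and -20.4 points in the knockout. Against cells of 5 to 10% they were 14.7 for SOX2 and -15.1 for amnion factors in the knockout, and thinned to 10000 UMIs -19.8 for NANOG and -5.52 for amnion factors. Depth limits all of these, since the cells above 25% held 1443197 and 2708273 nuclear-encoded UMIs against 169536706 and 240455885 in the reference cells.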

Other observations

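The sums of the 3 MTRNR2L genes grew with the mitochondrial share without a plateau. The mitochondrial gene MT-RNR2 is not counted in these matrices, and whether reads from it entered these sums was not tested. The classes were formed by the mitochondrial share, so the rise is given as a description only. They stood at 263 CPM in H1 cells with 10 to 15% mitochondrial UMIs, at 802 CPM at 25 to 40%, at 1836 CPM at 40 to 60%, at 4849 CPM at 60 to 80% and at 8607 CPM above 80%. In the knockout the same classes stood at 274, 1172, 2873, 6674 and 20675 CPM. FLNA, a large actin-crosslinking protein chosen after the levels by class were seen, stood at 104 CPM in H1 cells with 10 to 15% and at 839 CPM above 80%, and at 167 and 2251 CPM in the knockout.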
